A study of Mus musculus with 8 samples.

Results

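The glutathione, peroxiredoxin and metallothionein defence is described here by the transcript levels of its genes in the brains of 4 Hfe-/- × Tfr2mut mice and 4 wild-type mice. These genes were picked by symbol, a rule that holds no measured value, though it was set with earlier results of these data known. They are the Gpx, Gst, Mgst, Prdx, Txn, Txnrd, Sod and Mt families together with Cat, Gclc, Gclm, Gss, Gsr, Slc7a11, Nqo1, Nfe2l2, Keap1 and Srxn1. Probes were found for 57 such genes, of 16,593 genes named on the array, and 41 of the 57 passed the detection filter, of 8,051 genes that did. Gsr, Prdx5 and Prdx6 were not analysed here.

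All mice were male, 13 weeks old and on the AKR background. The mutant mice were homozygous for the disrupted Hfe gene and for the mutated Tfr2 gene, both of which are germline changes present in every cell, and they ate a diet with 2% carbonyl iron for 3 weeks before sampling. The wild-type mice carried neither change and stayed on the standard diet of about 0.02% iron. Before the brain was taken and frozen, the vessels were rinsed with saline. No group had only the mutations or only the diet, so genotype and diet cannot be told apart in any difference given here.

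These genes serve linked chemical tasks. Superoxide dismutases convert superoxide to hydrogen peroxide, and catalase, glutathione peroxidases and peroxiredoxins then reduce the peroxide. Glutathione and thioredoxin supply the electrons, glutathione transferases couple glutathione to reactive products of damaged lipids, and metallothioneins bind zinc, copper and cadmium through their cysteines. Free ferrous iron turns hydrogen peroxide into hydroxyl radical, which starts lipid peroxidation. Gpx4 reduces lipid hydroperoxides in membranes and restrains the iron-dependent cell death called ferroptosis. It uses glutathione, which is made with cysteine that Slc7a11 imports as cystine. Many of these genes are targets of the transcription factor NRF2, the product of Nfe2l2, which Keap1 holds in check. In brain, much of the glutathione system is known to reside in astrocytes.

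Signals are the deposited cubic-spline-normalized intensities in arbitrary units, each with a detection p that compares the probe with negative-control beads on its array. A probe was tested if all 4 arrays of either group had a detection p under 0.01, and a gene is represented by its brightest tested probe. Differences are log2 signal of mutant minus wild-type from limma, with p adjusted over all 11,204 tested probes, and a gene is called at an adjusted or at an unadjusted p under 0.05. Signals of different probes are not compared, since probes differ in how well they bind.

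Between 11,188 and 12,192 probes were detected per array, and the lowest detected signal was 49.6 to 69.4. Wild-type replicate 1 stood apart among the members: it gave the lowest of the 8 signals for 15 of the 41 genes (36.6%, against 24.5% of all genes tested), and before normalization its mean signal was 905, against 570 to 741 in the other arrays. Of the brain cell markers listed, 6 of 8 for neurons, 7 of 8 for oligodendrocytes, 7 of 8 for astrocytes and 7 of 8 for microglia passed the filter. The tested Hfe probe was brighter in mutant arrays (314 to 356) than in wild-type arrays (123.1 to 139.9), +1.34 (SE 0.089, adjusted p = 2.3e-05). Whether that probe lies inside or outside the deleted stretch is unknown here, so it checks nothing about the labels.

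No member gene differed between the groups at adjusted p, and the differences were small. Of the 41 tested genes, 0 passed adjusted p in limma, where 0.211% of all genes tested did, and the lowest adjusted p was 0.197. At unadjusted p, 6 genes (14.6%) were called, beside 12.5% of all genes. Gstm4, Gpx4 and Sod2 were higher in mutant mice, beside 6.79% of all genes called higher, and Cat, Slc7a11 and Txnrd3 were lower, beside 5.71% called lower. Txnrd3 passed the filter only through the wild-type group, where it is higher, and its call gives no support. Of the 38 members detected in all 8 arrays, 5 (13.2%) were called, beside 11.99% of all genes so detected. Both shares lie near the background, so the calls do not set the members apart from other genes. The count higher was 1 without wild-type replicate 4 and 6 without wild-type replicate 2 or 3, and the count lower was 1 without mutant replicate 2. Of all genes, 9.08% were called in either direction without wild-type replicate 4, 9.66% without wild-type replicate 2 and 17% without wild-type replicate 3. Without mutant replicate 2 that share was 11.4%. The log2 differences of the members ran from -0.39 to +0.43, at most a 1.35-fold difference.

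More member genes lay above 0 than below, though not in every array. The difference was above 0 for 31 of 41 genes (75.6%), beside 50.1% of all genes tested, and the median was +0.08, beside 0.00 over all genes. Without wild-type replicate 1 it was above 0 for 27 of 42 tested genes, with a median of +0.07. The median of the 41 genes against their wild-type mean was +0.11, +0.12, +0.09 and 0.00 in mutant replicates 1 to 4, and -0.06, +0.02, +0.06 and -0.04 in wild-type replicates 1 to 4, so mutant replicate 4 lay within the wild-type range. In 5 genes, Gpx1, Gstm4, Mgst3, Prdx4 and Sod2, the 4 mutant signals lay above all 4 wild-type signals, and in 0 genes all lay below. Among all genes the groups did not overlap in 8.05%, 4.56% with the mutant mice higher and 3.49% with them lower. For these 5 genes the two-sided exact permutation test over the 70 assignments of the arrays gives p = 0.0286, the smallest it can give. Groups without overlap always give that value, so it restates the lack of overlap and adds no support. Members share arrays and regulators and are not replicates, so these counts carry no test of their own.

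**Figure D1:**
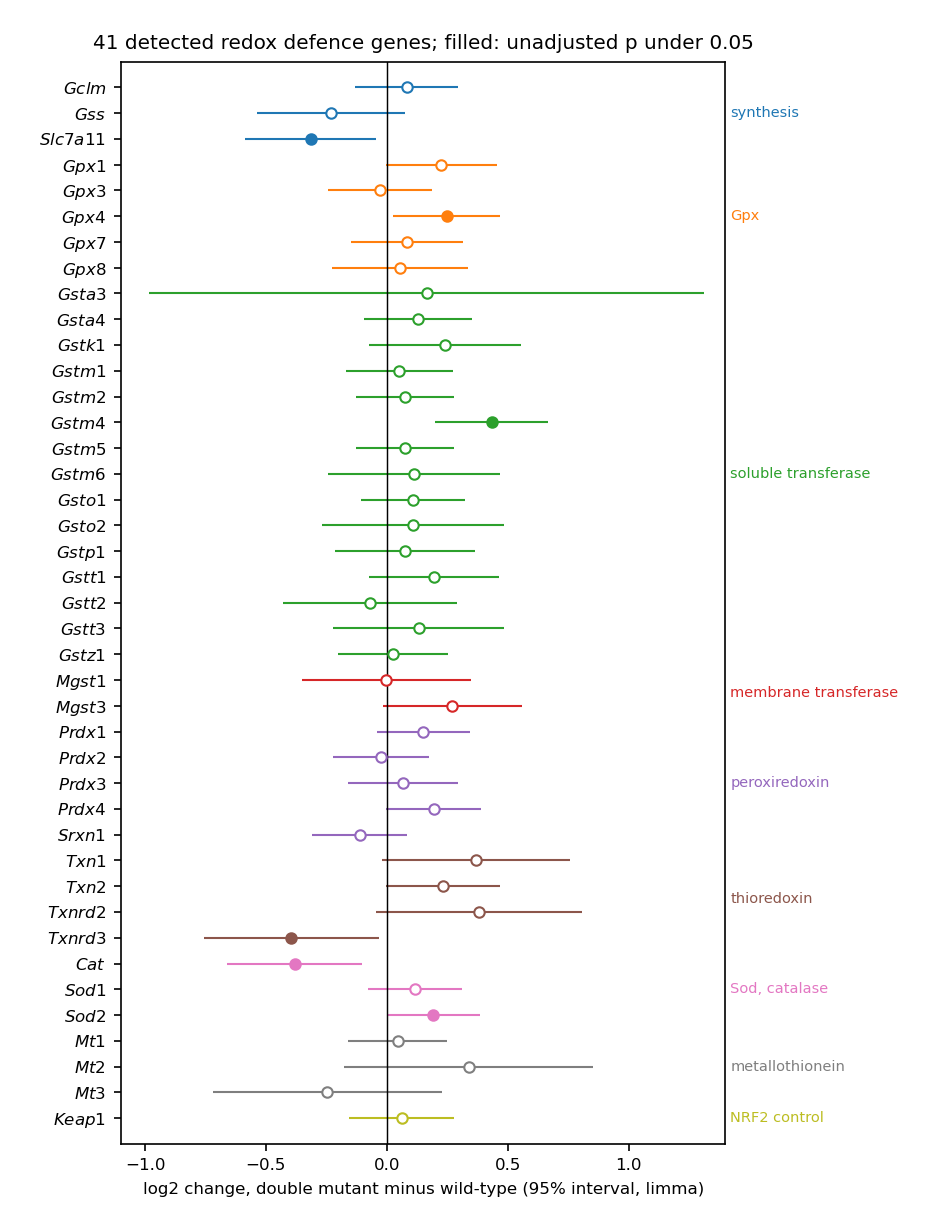
Log2 difference, double mutant minus wild-type, of the 41 tested genes by enzyme class, with 95% intervals from limma over 4 arrays a group. Filled points are the 6 genes at unadjusted p under 0.05, and 31 of 41 points lie to the right of 0 while most intervals include it.

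**Figure D2:**
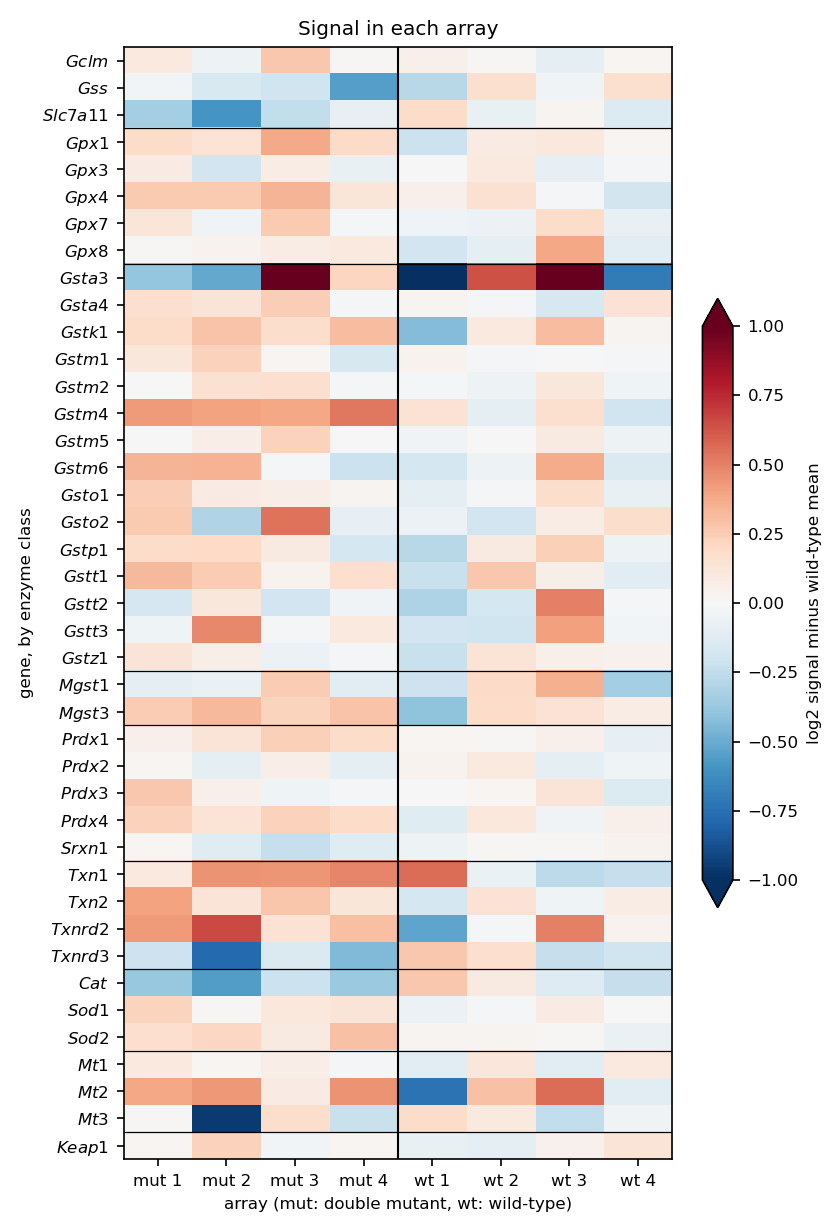
Log2 signal of each tested gene in each array, minus the wild-type mean of that gene, with colours capped at 1 log2 unit either way. The column of wild-type replicate 1 is the lowest of all 8 arrays for 15 of the 41 genes, and Gsta3 spreads most within both groups.

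Metallothioneins were detected for 3 of 4 genes, and none differed between the groups at adjusted or unadjusted p. Mt1 and Mt2, adjacent genes that metals and glucocorticoids are known to induce through most tissues, gave mean differences of +0.04 and +0.34, whereas Mt3, a form found mainly in the central nervous system, gave -0.25. Metal induction of Mt1 and Mt2 runs through the factor MTF1 at metal response elements, short sites upstream of the start. The 250 bases before the annotated start are shown for these 3 genes to set that known control beside the measured levels, in capitals where a script found the core TGCGCNC or TGCACNC on either strand (RefSeq, GRCm38.p6, all on the + strand). RefSeq's table gives 1 start for each of these genes, which for Mt1 lies downstream of the outermost start of the gene, so that the Mt1 stretch reaches into the annotated gene. They lie at chr8:94178839-94179088 for Mt1, chr8:94172368-94172617 for Mt2 and chr8:94152357-94152606 for Mt3.
Mt1: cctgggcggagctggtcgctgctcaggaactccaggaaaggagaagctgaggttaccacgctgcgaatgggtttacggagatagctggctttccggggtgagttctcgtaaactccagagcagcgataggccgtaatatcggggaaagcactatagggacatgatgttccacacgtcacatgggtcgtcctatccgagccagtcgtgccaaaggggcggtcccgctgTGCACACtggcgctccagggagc
Mt2: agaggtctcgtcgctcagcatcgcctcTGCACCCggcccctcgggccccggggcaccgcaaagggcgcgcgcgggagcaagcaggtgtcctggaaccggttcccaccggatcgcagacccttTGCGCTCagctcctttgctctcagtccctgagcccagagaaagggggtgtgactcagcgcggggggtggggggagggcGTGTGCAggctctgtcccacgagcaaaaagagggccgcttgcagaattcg
Mt3: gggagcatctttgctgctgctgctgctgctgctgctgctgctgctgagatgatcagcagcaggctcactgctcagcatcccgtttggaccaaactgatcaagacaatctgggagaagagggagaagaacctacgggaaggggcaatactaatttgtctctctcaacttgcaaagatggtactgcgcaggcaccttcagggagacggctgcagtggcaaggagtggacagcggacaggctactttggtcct
In the 300-base window that runs from 250 bases before to 50 after the start, Mt1 had 3 matches, 1 of them in the stretch shown, Mt2 had 4, with 3 shown, and Mt3 had 1, with 0 shown. Most Mt1 matches in the window thus lie outside the stretch shown, at or past the start used. Of all 32,851 promoter windows, 25.7% held at least 1 match and 1.97% held 3 or more. Gclm was the only other member gene with 3. A match is a run of letters and not a measured site.

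The Mt1 signal was 34391, 32498, 33608 and 31843 in the mutant mice and 29876, 34768, 29731 and 34218 in the wild-type mice. The groups overlapped fully, and the difference of +0.04 had a 95% interval of -0.16 to +0.25 (adjusted p = 0.862). Mt2 gave 220, 226, 178 and 229 in mutant and 101, 205, 246 and 155 in wild-type mice. Its mutant signals were close together while the wild-type signals spread from the lowest to the highest of the 8, so that the mean difference of +0.34 had an SE of 0.233 (adjusted p = 0.551). Mt3 gave 7061, 3604, 7920 and 5989 against 7934, 7480, 5905 and 6823, with -0.25 and an SE of 0.214 (adjusted p = 0.636). Mutant replicate 2 alone was low in Mt3, and without it the difference was -0.01. Without wild-type replicate 1, Mt2 differed by +0.09, and without wild-type replicate 3 by +0.52 (limma, unadjusted p = 0.0349). Mt4, known from stratified squamous epithelia, was detected in 0 of 8 arrays.

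**Figure D3:**
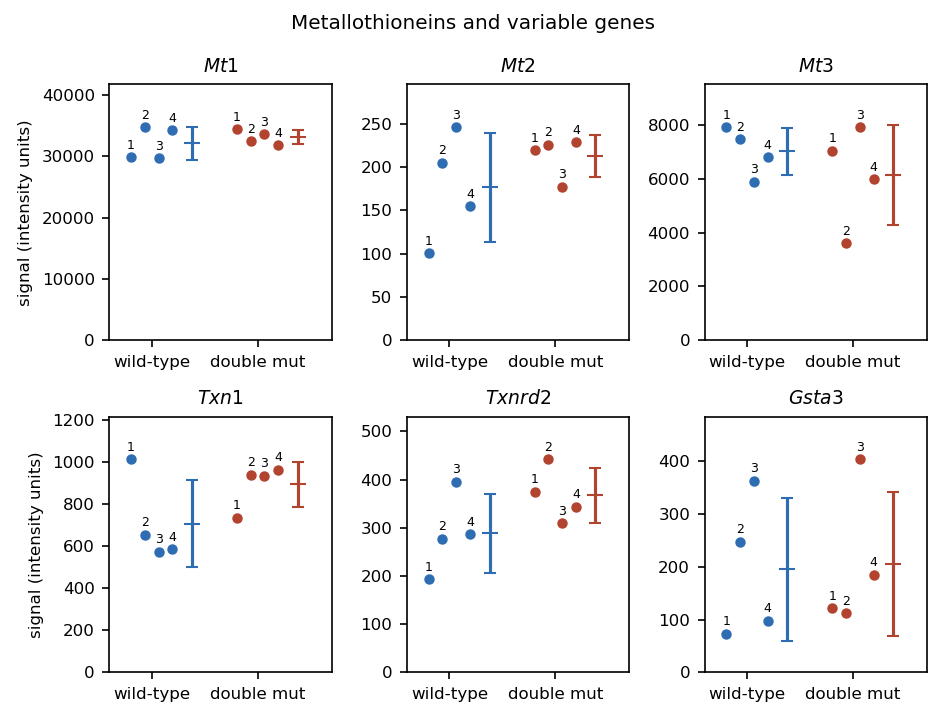
Signal in intensity units of the 3 detected metallothioneins and of Txn1, Txnrd2 and Gsta3, numbered by replicate, with the mean and SD of 4 arrays beside each group. Mt1 overlaps fully, the low Mt3 point is mutant replicate 2 at 3604, and the single high wild-type Txn1 point is replicate 1 at 1013.

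Superoxide dismutase 2 and catalase were called in opposite directions at unadjusted p. Sod2, the manganese enzyme of the mitochondrial matrix, was higher in the mutant mice, with 6629, 6808, 6271 and 7223 against 6004, 5984, 5942 and 5623. The groups did not overlap, and the difference was +0.19 (SE 0.087, unadjusted p = 0.0492, adjusted p = 0.39, exact permutation p = 0.0286). Sod1, the copper and zinc enzyme of the cytosol and the space between the mitochondrial membranes, gave 11775, 10169, 10888 and 11044 against 9694, 9943, 10701 and 10102. Wild-type replicate 3 lay inside the mutant range, and the difference was +0.12 (SE 0.088, adjusted p = 0.587).

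Catalase, the heme enzyme of peroxisomes, was the lower gene with the lowest unadjusted p among the members. The Cat signal was 554, 488, 618 and 555 in mutant and 867, 766, 656 and 611 in wild-type mice, -0.38 (SE 0.127, unadjusted p = 0.0123, adjusted p = 0.297, exact permutation p = 0.0571). A single pair crossed, mutant replicate 3 lying just above wild-type replicate 4. The direction and the unadjusted call held in each of the 20 alternative analyses, at -0.48 to -0.29. Sod3, the secreted dismutase, did not pass the filter, with 2 mutant and 3 wild-type arrays detected.

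The glutathione peroxidases were tested for 5 of 8 genes, and 4 of the 5 differences were above 0. Gpx4, which reduces phospholipid hydroperoxides, was higher at unadjusted p, with 4428, 4424, 4675 and 4024 in mutant and 3818, 4104, 3643 and 3254 in wild-type mice. Only wild-type replicate 2 exceeded the lowest mutant signal, and the difference was +0.25 (SE 0.101, unadjusted p = 0.0322, adjusted p = 0.352, exact permutation p = 0.0571). A second, dim Gpx4 probe gave +0.14 (SE 0.126). Gpx1, the cytosolic and mitochondrial peroxidase found in most cells, gave 7896, 7658, 9032 and 7946 against 5989, 7372, 7483 and 7053. Its groups did not overlap, and limma gave +0.22 (SE 0.104, unadjusted p = 0.0544, adjusted p = 0.4). Without wild-type replicate 1 the Gpx1 difference was +0.15. Gpx3, the plasma form, and Gpx7 and Gpx8, both of the endoplasmic reticulum, differed by -0.03, +0.08 and +0.05, each with overlap. Gpx8 is above 0 only at its brightest probe, as its other tested probes gave -0.02 and -0.03.

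Selenocysteine is the catalytic residue in 5 of the tested genes. Gpx1, Gpx3, Gpx4, Txnrd2 and Txnrd3 differed by +0.22, -0.03, +0.25, +0.38 and -0.39, the last from a probe that passed the filter only through the wild-type group.

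**Figure D4:**
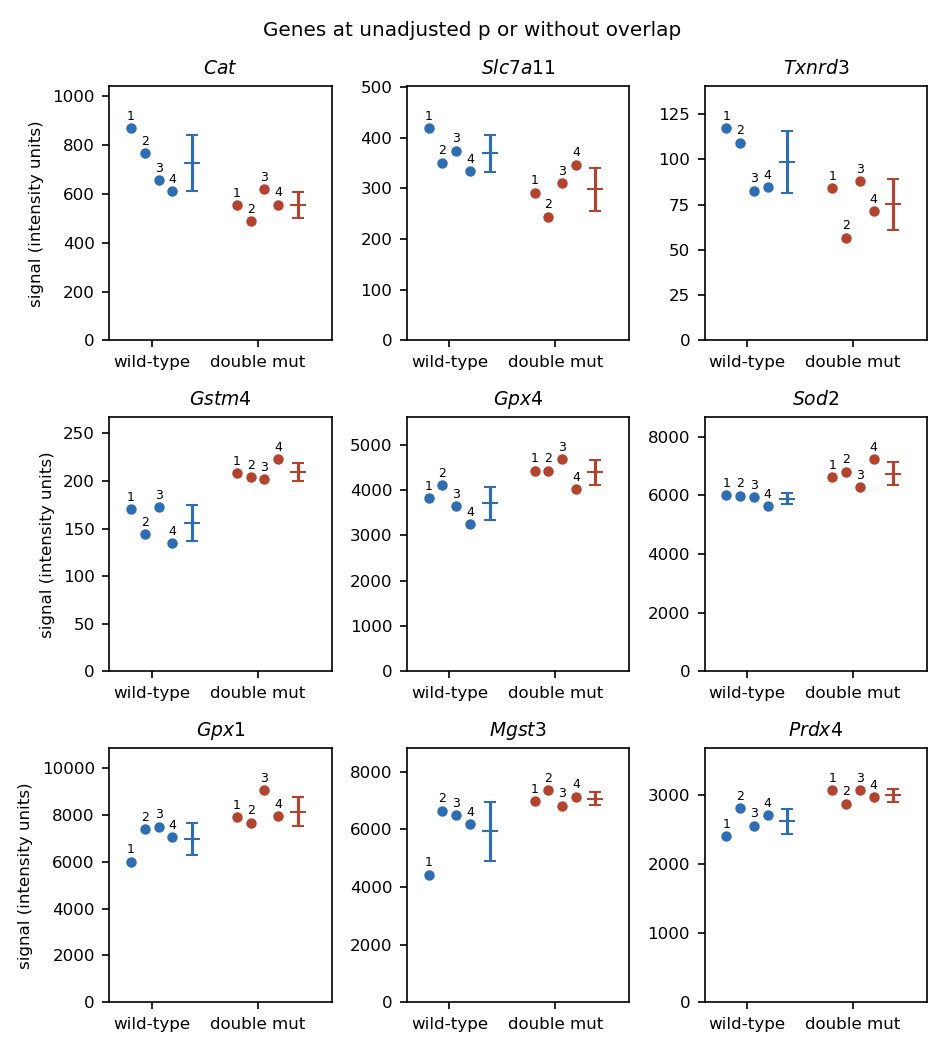
Signal in intensity units of the 6 genes at unadjusted p under 0.05 and of Gpx1, Mgst3 and Prdx4, whose groups did not overlap, numbered by replicate, with the mean and SD of 4 arrays beside each group. The Gstm4 mutant points (202 to 223) lie above all wild-type points (135 to 172), and the Cat groups touch between 611 and 618.

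Peroxiredoxins reduce peroxides with a cysteine that thioredoxin recycles. Among the 5 tested genes of this class, Prdx4, the form of the endoplasmic reticulum, gave 3061, 2870, 3061 and 2964 in mutant and 2397, 2810, 2553 and 2705 in wild-type mice. These groups did not overlap, and the difference was +0.19 (SE 0.089, unadjusted p = 0.0519, adjusted p = 0.396). Prdx2, abundant in neurons and red blood cells, gave 11076, 10287, 11422 and 10282 against 11208, 11691, 10291 and 10591, a difference of -0.02 with a 95% interval of -0.22 to +0.17. Its groups overlapped throughout. Prdx1, a cytosolic NRF2 target, differed by +0.15 (adjusted p = 0.489) at its bright probe and by +0.46 at a dimmer one (unadjusted p = 0.0161, adjusted p = 0.316), so its 2 tested probes differed in size and not in sign. Prdx3, the mitochondrial form, differed by +0.07. Srxn1, sulfiredoxin, which repairs over-oxidized peroxiredoxins and is itself an NRF2 target, differed by -0.11, with -0.08 and -0.07 at its other probes.

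Thioredoxin genes gave the widest differences of any class by median, +0.30 over 4 tested genes, though the signals of single mice were uneven. Txn1, cytosolic thioredoxin, gave 736, 940, 936 and 963 in mutant and 1013, 655, 574 and 587 in wild-type mice. Apart from wild-type replicate 1, the highest of the 8, every mutant signal lay above every wild-type signal. Limma gave +0.37 (SE 0.176, unadjusted p = 0.0602, adjusted p = 0.41). The Txn1 difference was +0.56 without wild-type replicate 1 (limma, unadjusted p = 0.000936, adjusted p = 0.225) and +0.28 without wild-type replicate 3. Both genes of the mitochondrial pair were above 0, Txn2 by +0.23 (adjusted p = 0.399) and its reductase Txnrd2 by +0.38 (adjusted p = 0.433). Txnrd2 ranged from 309 to 442 in mutant and from 194 to 396 in wild-type mice, and its difference was +0.21 without wild-type replicate 1 and +0.55 without wild-type replicate 3 (limma, unadjusted p = 0.00862). A second tested Txnrd2 probe gave +0.22 (SE 0.179, adjusted p = 0.617). Txnrd3, a reductase with a fused glutaredoxin domain known mainly from testis, was lower at unadjusted p.

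The Txnrd3 call rested on signals near the detection limit. They were 84.1, 56.7, 88.0 and 71.6 in mutant mice, with 3 of 4 arrays detected, and 117, 109, 82.8 and 84.7 in wild-type mice. The difference was -0.39 (SE 0.163, unadjusted p = 0.0345, adjusted p = 0.359, exact permutation p = 0.143). Mutant replicates 1 and 3 lay inside the wild-type range, and without mutant replicate 2 the difference was -0.27 (limma, unadjusted p = 0.103). Txnrd1, the cytosolic reductase, did not pass the filter, with 3 arrays detected in each group.

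Glutathione synthesis was covered by Slc7a11, Gclm and Gss, of which Slc7a11 was lower in the mutant mice at unadjusted p. Slc7a11, the cystine and glutamate exchanger that supplies cysteine, gave 292, 244, 310 and 347 in mutant and 418, 351, 374 and 335 in wild-type mice. Mutant replicate 4 lay above wild-type replicate 4, and the other 3 mutant signals lay below all 4 wild-type signals. The difference was -0.32 (SE 0.123, unadjusted p = 0.0269, adjusted p = 0.344, exact permutation p = 0.0571). Without mutant replicate 2 it was -0.22 (limma, unadjusted p = 0.0784).

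Slc7a11 is a known NRF2 target, and NRF2 binds antioxidant response elements. The 250 bases before its annotated start are shown because Slc7a11 is a called gene under this known control. The start used lies downstream of the outermost start of the gene, inside its annotated span (RefSeq, GRCm38.p6, chr3:50443614-50443863, - strand), in capitals where the core TGANNNNGC was found on either strand.
Slc7a11: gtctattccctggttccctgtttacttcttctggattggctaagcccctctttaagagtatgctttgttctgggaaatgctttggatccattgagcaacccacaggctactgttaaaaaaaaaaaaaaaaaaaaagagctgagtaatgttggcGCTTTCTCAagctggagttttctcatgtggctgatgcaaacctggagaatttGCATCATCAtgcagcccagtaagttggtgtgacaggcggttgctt
The 300-base window held 3 matches, 2 of them in the stretch shown, and both of those read on the opposite strand. At least 1 match was held by 41.3% of all promoter windows and 3 or more by 1.88%. Among the 53 member genes with a promoter sequence, 28 (52.8%) held an antioxidant response core and 19 (35.8%) a metal response core. Among the 39 of these that were tested, the counts were 18 (46.2%) and 15 (38.5%). A member gene counts if any of its windows holds a match. The share over all promoters is per window (32,851 windows of 27,025 genes), so a gene with several windows has more openings for a match. Of the other called genes, Txnrd3 also held 3 antioxidant response cores, Gstm4 held 1, and Cat, Gpx4 and Sod2 held 0. Among member genes that were not called, Srxn1 held 4 and Gstp1 held 3.

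Gclm, the regulatory subunit of the rate-limiting enzyme of glutathione synthesis, gave 669, 605, 753 and 630 in mutant and 650, 632, 587 and 635 in wild-type mice. The groups overlapped, and the difference was +0.08 (SE 0.097, adjusted p = 0.739). Gss, which adds glycine in the last step, differed by -0.23 (SE 0.139, adjusted p = 0.5) at 52.9 to 76.1 in mutant and 63.8 to 86.5 in wild-type mice, with only 2 mutant arrays detected. Gss thus passed the filter only through the wild-type group, where it is higher. At this probe the Gss difference was -0.33 without wild-type replicate 1 (limma, unadjusted p = 0.0342) and -0.13 without mutant replicate 4. A second tested Gss probe, also detected in only 2 mutant arrays, gave -0.04 (SE 0.173, adjusted p = 0.94). Gclc, the catalytic subunit, did not pass the filter.

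Control of NRF2 was represented by Keap1 alone. Keap1, the adaptor that marks NRF2 for degradation, gave 1381, 1597, 1335 and 1375 in mutant and 1292, 1269, 1402 and 1488 in wild-type mice, +0.06 (SE 0.098, adjusted p = 0.819). The groups overlapped, and its 4 tested probes lay between -0.02 and +0.07. Both probes for Nfe2l2 were detected in 0 of 8 arrays. The better of the Nqo1 probes, for a quinone reductase widely used as an NRF2 readout, was detected in 3 arrays of each group with means of 68.6 and 68.6.

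Glutathione transferases were the largest class, and most of their soluble forms lay above 0. Of 21 soluble transferase genes on the array 15 were tested, 14 differences were above 0, and the median was +0.11. In the average-normalized table of the same arrays, where the median of all genes was -0.08, the differences of Gstm2, Gstm6, Gsto2 and Gstz1 were below 0, and without wild-type replicate 1 those of Gsta3, Gstp1 and Gstz1 were. Against the wild-type mean of each gene, the class median was +0.17, +0.15, +0.09 and -0.02 in mutant replicates 1 to 4 and -0.17, -0.02, +0.16 and -0.04 in wild-type replicates 1 to 4, so the groups overlapped. Only Gstm4, of the mu class, was called.

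Gstm4 had the lowest p of all members. Its signal was 208, 204, 202 and 223 in mutant and 171, 144, 172 and 135 in wild-type mice, with no overlap. The difference was +0.43 (SE 0.106, 95% interval +0.20 to +0.67, unadjusted p = 0.00182, adjusted p = 0.197, exact permutation p = 0.0286). It kept direction and unadjusted call in each of the 20 alternative analyses, at +0.29 to +0.52. With array weights it alone among the members passed adjusted p (0.0288). That setting raised calls over the whole array, to 77 probes higher and 41 lower at adjusted p, against 16 and 3 in the main analysis.

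The other mu-class genes, neighbours of Gstm4 in one cluster, differed less. Gstm5 gave 6684, 6950, 7790 and 6651 in mutant and 6475, 6669, 7073 and 6410 in wild-type mice, +0.07 (SE 0.091, adjusted p = 0.75), with overlap. Gstm1, Gstm2 and Gstm6 differed by +0.05, +0.08 and +0.11, also with overlap. Mu-class genes are near copies of each other, and probe sequences were not used here, so how far a Gstm probe also binds its neighbours was not examined.

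Transferases of the other soluble classes gave no call. Gstk1, of mitochondria and peroxisomes, differed by +0.24, Gstt1 by +0.20, Gsta4, which clears the lipid peroxidation product 4-hydroxynonenal, by +0.13, Gstt3 by +0.13, Gsto1 and Gsto2 by +0.11, Gstp1 by +0.07 and Gstz1 by +0.03. Gstk1 differed by +0.10 without wild-type replicate 1 and by +0.34 without wild-type replicate 3 (limma, unadjusted p = 0.0309), and Gstt1 by +0.12 without wild-type replicate 1 and by +0.29 without wild-type replicate 2 (limma, unadjusted p = 0.0369). Gstt2, at -0.07, was the only soluble transferase below 0. Gsta3 was too variable to read, from 112 to 403 in mutant and from 73.5 to 363 in wild-type mice, +0.16 with an SE of 0.52.

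Membrane-bound transferases reduce lipid hydroperoxides as well as coupling glutathione. Mgst3 gave 6967, 7349, 6825 and 7129 in mutant and 4427, 6641, 6490 and 6173 in wild-type mice, without overlap. The difference was +0.27 (SE 0.13, unadjusted p = 0.0623, adjusted p = 0.414). Its second probe also showed no overlap, at +0.28 (unadjusted p = 0.029, adjusted p = 0.344). Wild-type replicate 1 was the lowest by far, and without it the Mgst3 difference was +0.14. Mgst1 differed by 0.00 with a 95% interval of -0.35 to +0.35.

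Sorted by the compartment where the protein acts, the 4 strictly mitochondrial genes, Sod2, Prdx3, Txn2 and Txnrd2, were all above 0, with a median of +0.21 and Sod2 called. Over the 20 alternatives this median was +0.18 to +0.24. The 3 genes shared between cytosol and mitochondria, Gpx1, Gpx4 and Sod1, had a median of +0.22, and the 3 of the endoplasmic reticulum, Gpx7, Gpx8 and Prdx4, +0.08. Of the 25 cytosolic or nuclear genes, 19 were above 0, with a median of +0.08. The peroxisomal enzyme Cat and the plasma membrane exchanger Slc7a11 were below 0. Groups of 1 to 4 genes are described here and were not tested against each other.

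Of the 57 genes on the array, 16 did not pass the filter and carry no test. Gpx5, Gpx6, Gsta1, Gsta2, Gstm3, Gstp3, Gstt4, Mgst2, Mt4 and Nfe2l2 were detected in 0 arrays. Gpx2, Gstp2, Gclc, Sod3, Nqo1 and Txnrd1 were detected in 1 to 6. Of the 41 tested genes, 38 were detected in all 8 arrays, and Gss, Gsto2 and Txnrd3 were missed in 1 or 2 mutant arrays.

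Genes of the same pathways outside the member families were counted in the same way. Of 66 listed genes 61 were on the array and 45 were tested. Differences were above 0 for 29, the median was +0.04, 3 were higher and 1 lower at unadjusted p (8.89%, beside 12.5% of all genes), and 0 passed adjusted p. In the average-normalized table the median was -0.05. Msrb1, a selenoprotein that repairs oxidized methionine, was higher by +0.45 (SE 0.188, unadjusted p = 0.0359), with 365 to 596 in mutant and 238 to 416 in wild-type mice. Ggct, of glutathione breakdown, was higher by +0.23 (unadjusted p = 0.0368), and Glrx3, a glutaredoxin that handles iron-sulfur clusters, by +0.26 (unadjusted p = 0.0369), the latter with 1071 to 1170 against 779 to 1046 and no overlap. Secisbp2, which enables selenocysteine insertion, was lower by -0.25 (SE 0.091, unadjusted p = 0.0177, adjusted p = 0.325), with 185 to 206 in mutant and 217 to 248 in wild-type mice and no overlap. Pgls, of the pentose phosphate pathway, and Slc1a1, a neuronal glutamate and cysteine transporter, differed by +0.37 and -0.15 with unadjusted p of 0.0543 and 0.106. Slc3a2, the partner chain of Slc7a11, was named after its value was seen and differed by +0.04 (SE 0.189). Hmox1, heme oxygenase and a classic NRF2 target, and Mtf1 did not pass the filter.

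Some markers of several cell types were called at unadjusted p, beside 12.5% of all genes, but none passed adjusted p. The lowest adjusted p was 0.23, for Hbb-b2, and the summed signals of the groups overlapped for every cell type. In RNA of whole tissue, fewer cells of a type and less RNA per cell cannot be told apart. The 2 tested red blood cell genes were higher at unadjusted p, Hbb-b2 by +1.32 and Hba-a1 by +1.06, with summed signals of 1706 to 4916 in mutant and 1210 to 2203 in wild-type mice. The 4 tested endothelial markers were all below 0, with Flt1 and Tek lower at unadjusted p and sums of 2509 to 3533 against 3363 to 3793.

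All 7 oligodendrocyte markers were below 0, with Cnp and Ugt8a lower at unadjusted p and sums of 69680 to 72706 against 71389 to 80019. The 7 microglia markers were all above 0, with Aif1 higher at unadjusted p and sums of 3063 to 3324 against 2676 to 3130. Astrocyte markers were mixed, 4 of 7 above 0 with Aldh1l1 lower at unadjusted p, and sums of 40756 to 44027 against 39100 to 45522. Neuron markers gave 1 of 6 above 0, with Syt1 lower at unadjusted p and sums of 56993 to 61240 against 59210 to 67688. The 5 choroid plexus markers were below 0, with Kl lower at unadjusted p and sums of 28395 to 37336 against 30759 to 38268. Of 7 glucocorticoid response genes, relevant since glucocorticoids induce Mt1 and Mt2, 5 were above 0 and 0 were called, with sums of 10539 to 12202 against 9773 to 12735. The part of these marker differences in the member differences was not tested.

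The 6 calls depended on the analysis to different degrees. Cat and Gstm4 kept direction and unadjusted call in all alternatives. Gpx4 kept its direction but missed unadjusted p in 7 of 20, Slc7a11 in 5 of 20, Sod2 in 9 of 20 and Txnrd3 in 6 of 19. Leaving out single arrays ended the Sod2 call in each case but that of mutant replicate 3, at +0.16 to +0.20. The Gpx4 call ended without mutant replicate 1, 2 or 3 or wild-type replicate 3 or 4, at +0.19 to +0.24, and the Slc7a11 call without mutant replicate 1 or 2 or wild-type replicate 1 or 3, at -0.31 to -0.22. The Txnrd3 call ended without mutant replicate 2 or 4 or wild-type replicate 1 or 2, at -0.38 to -0.27.

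**Figure D5:**
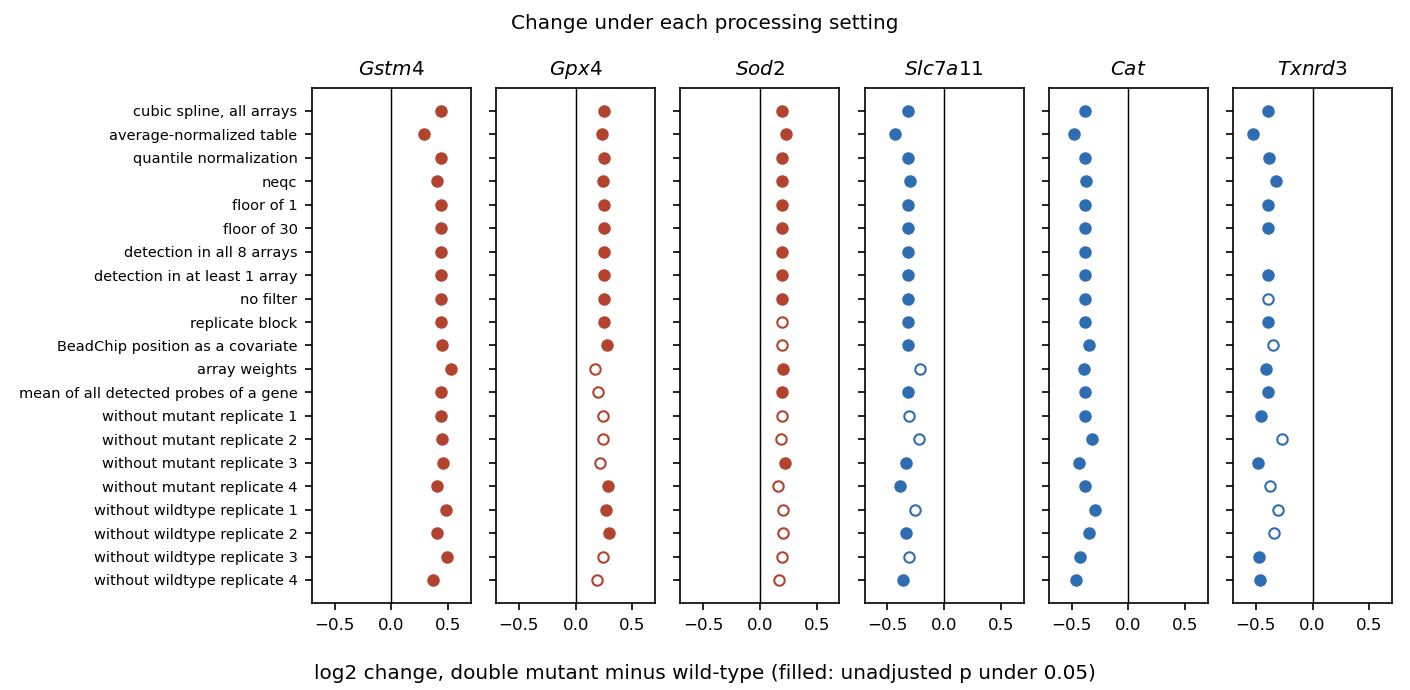
Log2 difference of the 6 genes at unadjusted p in the main analysis, top row, and in each alternative analysis, with filled points at unadjusted p under 0.05 and no Txnrd3 point where detection in all 8 arrays was required. Every Gstm4 and Cat point is filled, and no gene changes side.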

How the data were processed

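Total RNA of the brains was hybridized to 8 positions of 1 Illumina MouseRef-8 v2 BeadChip, with the groups alternating along it. The authors processed the scans in GenomeStudio (Gene Expression Module v2010.3) and deposited background-subtracted intensity values in 3 tables, non-normalized, Average-normalized and cubic-spline-normalized, each with a detection p-value per probe and array. Nothing used here gives the settings of the background step. Cubic-spline intensity was the main measure, and every column matched a sample (0 unmatched).

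Of 25,697 probes, RefSeq Entrez identifiers named 23,962 and the platform annotation 16, while 1,719 had no name. Signals under 10 were set to 10, log2 values were fitted with limma 3.58.1 in R 4.3.3 (data.table version 1.17.8) with no covariate, and p was adjusted by Benjamini-Hochberg over 11,204 probes. Single genes also had a two-sided exact permutation test over 70 assignments. The test was checked on simulated data. The labels number 4 mice a group and state no litter, so p-values measure the spread between these mice only, and the number of arrays limits the precision.

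The members and lists were chosen with earlier results of these data known. Every tested member was accounted for. Values in every array were given for genes at unadjusted p under 0.05, for the largest difference and the brightest probe of each class, and for Mt1, Mt2, Mt3, Gpx4, Slc7a11 and Keap1, and others were added after their values were seen. Of the pathway list up to 6 genes of lowest p were named. Alternatives were the Average-normalized table, quantile and neqc normalization, floors of 1 and 30, a filter requiring detection in all 8 arrays, a filter requiring it in 1 array, no filter, a block for replicate number, a linear term for BeadChip position, weights for each array, averaging the probes of a gene, and leaving out each array. Gene names and promoter sequences came from RefSeq (GRCm38.p6), of which 53 of 57 member genes had a promoter.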

Additional observations from a re-analysis of the deposited data

Results flagged for a closer look

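In 6 of 82 groups of 4 arrays (41 genes in each of the 2 groups), 1 array lay far from the other 3 by Dixon's test, where chance flags about 1 in 20. Wild-type replicate 3 was high in Gpx7 (184.1, the others 154.2 to 157.6), Gpx8 (601.4, the others 403.1 to 432.4) and Gstm2 (415.1, the others 370.6 to 377.6). Mutant replicate 3 was high in Mgst1 (738.0, the others 571.7 to 592.3). Wild-type replicate 4 was low in Sod2 (5623, the others 5942 to 6004), and without it the Sod2 difference was +0.17 (limma, unadjusted p = 0.115). Mutant replicate 1 was low in Txn1 (736.4, the others 936.0 to 963.5), and without it the Txn1 difference was +0.46 (limma, unadjusted p = 0.0337).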

How the results depend on the processing

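The count of member genes higher at unadjusted p was 3 and became 5 in the average-normalized table, 5 with neqc, 8 of 57 tested with no filter and 7 with the mean of all probes, settings in which 15.6%, 12.8%, 8.55% and 13.7% of all genes were called in either direction, beside 12.5%. In the average-normalized table the probes called higher over the whole array were 356, against 753 in the cubic-spline table. The member count higher ran from 1 (without wild-type replicate 4) to 6 (without wild-type replicate 2 or 3) when single arrays were left out. Of all genes, 9.08% were called in either direction without wild-type replicate 4, 9.66% without wild-type replicate 2 and 17% without wild-type replicate 3. The member count lower was 3, and 1 to 3 when single arrays were left out, the 1 without mutant replicate 2. The member count at adjusted p was 0, and 1 with array weights, where 77 probes higher and 41 lower passed over the whole array, against 16 and 3. The member median was +0.08, and 0.027 in the average-normalized table, where 25 of 41 members were above 0, beside 33.1% of all genes and 50.1% in the cubic-spline table. Of the other pathway genes, 3 were higher at unadjusted p, 0 in the average-normalized table, 1 with the replicate block, 9 with array weights and 0 to 4 when single arrays were left out, the 0 without wild-type replicate 4. Array weights called 19.4% of all genes in either direction, beside 12.5% in the main analysis. Causes were not tested.

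Signs turned only for genes that were not called in the main analysis. Not all of these lay near 0 there, as Gsta3 was at +0.16, Gstm6 at +0.11 and Gsto2 at +0.11. In the average-normalized table the differences were -0.013 for Gclm, -0.063 for Gpx7, -0.041 for Gpx8, -0.022 for Gstm2, -0.035 for Gstm6, -0.033 for Gsto2, -0.037 for Gstz1 and 0.031 for Prdx2. With array weights they were -0.186 for Gsta3, -0.0035 for Gstp1, -0.043 for Gstz1 and -0.024 for Mt1. When single arrays were left out, the ranges were -0.064 to 0.028 for Gpx3, -0.0077 to 0.18 for Gpx8, -0.23 to 0.56 for Gsta3, -0.0084 to 0.12 for Gstm1, -0.039 to 0.24 for Gsto2, -0.018 to 0.16 for Gstp1, -0.17 to 0.099 for Gstt2, -0.048 to 0.071 for Gstz1, -0.11 to 0.12 for Mgst1, -0.053 to 0.0088 for Prdx2 and -0.00051 to 0.11 for Prdx3.

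With the replicate block, 2 members were higher and 3 lower at unadjusted p and 0 passed adjusted p, Sod2 being lost (limma, unadjusted p = 0.11), beside 9.53% of all genes. Same-numbered arrays correlated at 0.101, -0.143, -0.348 and 0.098 in their deviations from the group means. Mutant replicate 2 gave -0.45 with wild-type replicate 1 and 0.439 with wild-type replicate 3. These values show no pairing by number, but so few arrays cannot exclude one. Gss, Gsto2 and Txnrd3 were not detected in every mutant array, and their signals lay near the lowest detected signal of 49.6 to 69.4, which limits what the arrays resolve for them. Gss was also called lower in the average-normalized table and with array weights (-0.36 in both), at the probe that represents it. Its second tested probe gave -0.04 in the main analysis.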
